A study of Mus musculus with 24 samples.

Results

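Interferon-stimulated genes are the genes that cells switch on when they sense interferon, and a list of 37 genes under that name was followed here in mouse calf muscle held in a cast. They were taken by symbol from 55487 annotated genes per library. Of these, 25 belong to the antiviral programme of type I interferon and 11 to a group around the factor IRF1 and the guanylate-binding proteins (GBP). The last, Psmb11, encodes a proteasome subunit of the thymus, belongs to neither, and is not generally known to be induced by interferon. Only genes that reached 0.5 TPM in 8 or more libraries were tested, which kept 33 members, 22 of the antiviral group and 11 of the IRF1/GBP group. The antiviral members Oas1a, Mx1 and Ifi44 and the proteasome gene Psmb11 were too low to test.

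Poly-adenylated RNA was sequenced from the gastrocnemius of 24 male C57BL/6J mice, 1 library per mouse and 8 mice per group. Mice were 10 weeks old at the start and are labelled as 12 weeks old. The uncasted group received water, the casted group received water with both hindlimbs in casts, and the group called casted with MOTS-c had the same casts and received 15 mg/kg/day of MOTS-c, a peptide encoded within the mitochondrial 12S ribosomal RNA gene. All 3 groups were injected intraperitoneally 2 times a day for 8 days. Values are TPM, a share of each library corrected for transcript length, scaled here between libraries so that the middle of all genes is level. A change is a log2 difference of (scaled TPM + 1), which understates low genes, and a member is said to rise or fall where limma's Benjamini-Hochberg adjusted p over all tested genes was under 0.05.

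Type I interferons act through the receptor IFNAR, the kinases TYK2 and JAK1 and a complex of phosphorylated STAT proteins with IRF9, which binds the interferon-stimulated response element (ISRE) in gene promoters. Interferon gamma acts through its own receptor, JAK1, JAK2 and STAT dimers that bind the gamma-activated site (GAS), and it induces IRF1, which in turn binds ISRE-like sites of GBP and immunity-related GTPase genes. Many genes answer to both, and muscle fibres, endothelium and macrophages can all express them.

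These binding motifs were looked for in the promoters, since both groups are defined by their interferon response. RefSeq promoters (GRCm38.p6) matched 27 of the 37 members by symbol, and the 250 bases before each start were searched on both strands for the ISRE core (GAAA, any 2 bases, GAAA) and the palindromic GAS motif TTCNNNGAA. The ISRE core was present in 7 of 17 antiviral members (41.2%) and in 7 of 9 IRF1/GBP members (77.8%), against 2.98% of all 32851 promoters. The GAS motif was present in 3 of 17 antiviral members (17.6%) and in 6 of 9 IRF1/GBP members (66.7%), against 7.02% of all promoters. Some members have more than 1 annotated start, and a match at any of them was counted. The shares of all promoters count each promoter by itself, so they differ in unit from the shares of members. A match describes the letters of the window and is not a measured site. The 6 windows shown end at the base before a RefSeq start, and each holds a match. That of Irgm2 lies inside the longer extent that the gene annotation gives for this gene. Irf1 is shown though it neither rose nor fell with casting. Xaf1 and Ifi35, which fell, and Trim25, which rose, had no match to either motif in the searched bases and are not shown. Capitals mark matches to either motif, and each window is written on the strand of its gene. They lie at chr19:34583354-34583528 (plus strand) for Ifit3, chr4:156200819-156200993 (minus strand) for Isg15, chr8:71537473-71537647 (minus strand) for Bst2, chr11:53769839-53770013 (plus strand) for Irf1, chr3:142530161-142530335 (plus strand) for Gbp7 and chr11:58214802-58214976 (plus strand) for Irgm2.
Ifit3: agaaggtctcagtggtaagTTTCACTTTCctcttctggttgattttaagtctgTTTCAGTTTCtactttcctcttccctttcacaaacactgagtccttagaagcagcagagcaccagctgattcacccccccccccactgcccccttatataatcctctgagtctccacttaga
Isg15: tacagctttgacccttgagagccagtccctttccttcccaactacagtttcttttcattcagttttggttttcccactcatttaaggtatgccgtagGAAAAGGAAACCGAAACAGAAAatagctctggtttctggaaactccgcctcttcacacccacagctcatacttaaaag
Bst2: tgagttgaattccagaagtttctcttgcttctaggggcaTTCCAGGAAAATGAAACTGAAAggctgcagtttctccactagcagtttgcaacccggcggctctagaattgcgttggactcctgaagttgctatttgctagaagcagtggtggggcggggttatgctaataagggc
Irf1: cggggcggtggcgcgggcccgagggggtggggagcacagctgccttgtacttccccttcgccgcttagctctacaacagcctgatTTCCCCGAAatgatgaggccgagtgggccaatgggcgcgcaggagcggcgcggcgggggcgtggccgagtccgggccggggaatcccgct
Gbp7: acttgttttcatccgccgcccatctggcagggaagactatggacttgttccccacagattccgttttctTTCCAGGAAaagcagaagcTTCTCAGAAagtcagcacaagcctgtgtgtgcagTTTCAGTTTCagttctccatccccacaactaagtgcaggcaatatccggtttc
Irgm2: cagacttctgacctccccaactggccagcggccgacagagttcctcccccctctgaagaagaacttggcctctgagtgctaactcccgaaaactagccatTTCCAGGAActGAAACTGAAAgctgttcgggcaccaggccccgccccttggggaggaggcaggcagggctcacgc
The window of Ifit3 holds a pair of ISRE cores, that of Isg15 a run of 3 overlapping ones, and that of Irf1 a single GAS motif. The windows of Bst2, Gbp7 and Irgm2 hold both kinds, with the GAS motif of Bst2 overlapping its ISRE run.

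The depth of the libraries is unknown, because TPM have a fixed total, and between 19832 and 21755 genes were above 0. Across all 14690 tested genes, casting called 4223 higher (28.7%) and 4074 lower (27.7%), so that a call with casting is common. MOTS-c against casting called 2 higher (0.0136%) and 1 lower (0.00681%). Directions given here depend on the scaling: on the deposited TPM without scaling, the median gene was 0.39 higher in casted than in uncasted libraries, and 62.2% of genes were called higher and 7.43% lower. The libraries within each group were not alike. Of the 22 antiviral members, 9 had their highest casted value in replicate 1 and 5 in replicate 2, and of the 11 IRF1/GBP members 3 and 5 did. Casted replicate 8 was lowest in 13 and 7. In the group with MOTS-c, replicate 4 had the highest value in 9 of 11 IRF1/GBP members, and replicate 6 the lowest in 10 of 22 antiviral members. Among uncasted libraries, replicate 2 was highest in 10 antiviral and 4 IRF1/GBP members, and replicate 5 lowest in 7 and 3. In bulk muscle, fewer cells of a type and less RNA per cell cannot be told apart.

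Casting lowered a set of antiviral transcripts relative to the middle of all genes. Of the 22 antiviral members tested, 10 fell and 1 rose, which can be read against 27.7% and 28.7% of all genes, and the median change was -0.085 where that of all genes was 0.006. The members that fell were the leading IFIT genes, Isg15 and its protease Usp18, Rsad2, Xaf1, Bst2, Ifi27 and Ifi35, by 0.24 to 0.63. On the deposited scale none of these passed as lower, the median change was 0.226, and 10 antiviral members passed as higher, Ifi27 among them. Over all genes 62.2% were higher and 7.43% lower on that scale, with a median of 0.389. With the casted group reduced to replicates 1 to 4, Ifit3, Xaf1, Bst2 and Ifi35 still fell and the other 6 and Trim25 did not pass. These 4 of 22 members are near the share of all genes that fell in that setting, 19.8%, where 20.7% rose.

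Ifit3 (ENSMUSG00000074896, chr19:34583531-34588731 on GRCm38) encodes a member of the IFIT family of RNA-binding antiviral proteins, and on the scale of log2(scaled TPM + 1) its fall was the largest of the antiviral group. Per cent changes of the means give another order, at -54.3% for Isg15, -42.5% for Xaf1 and -42.0% for Ifit3. Its scaled TPM had a lowest, median and highest value of 3.17, 3.70 and 4.25 in uncasted, 0.986, 1.75 and 3.86 in casted and 2.004, 3.05 and 3.86 in casted libraries with MOTS-c. Casted replicates 1 and 2 stood at the uncasted level, at 3.86 and 3.49, and the other 6 lay below every uncasted library. The mean went from 3.68 ± 0.318 to 2.14 ± 0.996 (SD, n = 8), a change of -0.63 ± 0.14 (SE, limma adjusted p = 0.000475). Ifit3 has a near-identical copy, Ifit3b, whose transcript matches 97.4% of its length at 97.8% identity, so reads may be divided between them. Ifit3b fell too, by 0.83 (limma adjusted p = 9.75e-08), from 3.50 ± 0.32 to 1.54 ± 0.35, and its casted replicate 1 was highest of the group at 2.23.

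Xaf1 (ENSMUSG00000040483, chr11:72301629-72313733) encodes a pro-apoptotic partner of XIAP. It ranged from 3.05 to 6.71 with a median of 5.13 in uncasted, from 2.05 to 3.22 with a median of 2.91 in casted and from 1.49 to 4.38 with a median of 3.56 in casted libraries with MOTS-c. The casted libraries were low as a whole and 6 of 8 lay under every uncasted one, while the group with MOTS-c reached from under the casted range into the uncasted one. The change with casting was -0.60 ± 0.15 (limma adjusted p = 0.0012).

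Bst2 (ENSMUSG00000046718, chr8:71534255-71537456) encodes tetherin, which holds budding viruses at the cell surface. Its lowest, median and highest values were 5.30, 6.56 and 8.80 in uncasted, 3.08, 4.53 and 5.597 in casted and 3.26, 4.15 and 5.22 in casted libraries with MOTS-c. Casted replicate 1 alone reached into the uncasted range, and the libraries with MOTS-c lay wholly under it. The change with casting was -0.49 ± 0.10 (limma adjusted p = 0.000243).

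Isg15 (ENSMUSG00000035692, chr4:156199424-156200818) encodes a ubiquitin-like protein that is attached to other proteins in response to interferon. It was at 0.498 to 2.08 with a median of 1.06 in uncasted, 0.192 to 0.973 with a median of 0.394 in casted and 0.225 to 0.977 with a median of 0.755 in casted libraries with MOTS-c. The groups overlapped, since casted replicates 2 and 4 were near the uncasted median and uncasted replicate 6 was far above its group. The change with casting was -0.47 ± 0.13 (limma adjusted p = 0.0034). Part of the Isg15 transcript (63.8%) matches the gene AC151275.1 at 95.2% identity, so its values are uncertain.

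**Figure D1:**
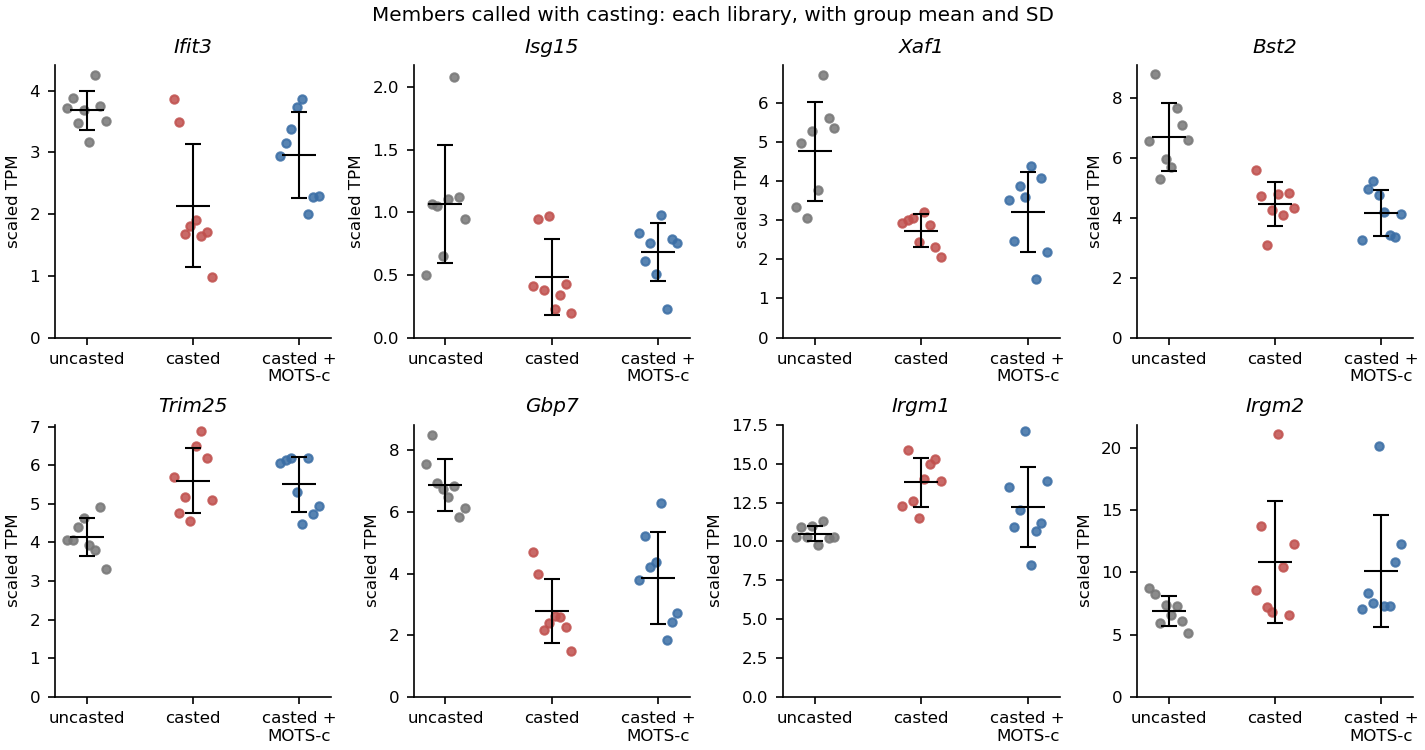
Scaled TPM (linear axis from 0) of 8 members called with casting: the 4 largest falls and the rise of the antiviral group, and the fall and both rises of the IRF1/GBP group. Each point is 1 library in replicate order, the black bar is the group mean and the whiskers are 1 SD. Gbp7 falls from 6.88 to 2.78 with no overlap between uncasted and casted libraries, and in Ifit3 casted replicates 1 and 2 stay at the uncasted level.

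The other antiviral members that fell with casting had smaller changes. Usp18, which removes ISG15 and dampens signalling from the type I receptor, changed by -0.38, Ifi35 by -0.36, Ifit2 by -0.35 and Ifit1 by -0.31. Rsad2, which encodes viperin, changed by -0.28 with a limma adjusted p of 0.0486, and in 13 of the 24 fits that left out 1 library it no longer passed (highest adjusted p = 0.109). Those libraries were uncasted replicates 2, 3, 6 and 8, casted replicates 2, 3, 4, 6, 7 and 8, and replicates 2, 3 and 4 with MOTS-c. Ifi27, with a mean of 24.03 the highest member in uncasted muscle, changed by -0.24, but was 0.25 higher on the deposited scale.

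Trim25 (ENSMUSG00000000275, chr11:88999376-89020293), the ubiquitin ligase that acts with the RNA sensor RIG-I, was the antiviral member that rose with casting. It ranged from 3.32 to 4.92 with a median of 4.06 in uncasted, from 4.55 to 6.88 with a median of 5.45 in casted and from 4.48 to 6.19 with a median of 5.69 in casted libraries with MOTS-c. Of the casted libraries 6 of 8 lay above every uncasted one, and both casted groups were high. The change was 0.36 ± 0.08 (limma adjusted p = 0.000882), and 0.78 on the deposited scale.

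The RNA sensors and the remaining antiviral effectors gave no call with casting on the scaled values. Ddx58 (RIG-I) changed by -0.02, Ifih1 (MDA5) by 0.13 and Dhx58 (LGP2) by 0.06. Zbp1, a sensor of Z-form nucleic acid, was low, at 0.277 ± 0.145 in uncasted and 0.569 ± 0.350 in casted libraries (0.27 ± 0.16, limma adjusted p = 0.155). Parp9, Parp14, Oasl2 and Mx2 changed by 0.04, 0.17, -0.07 and 0.00. Without scaling, Ddx58 (0.36), Ifih1 (0.48), Dhx58 (0.23), Zbp1 (0.40), Parp9 (0.47) and Parp14 (0.53) passed as higher, and Oasl2 (0.27) and Mx2 (0.12) did not pass. Without scaling 62.2% of all genes passed as higher. Mx2 shares near-identical stretches with Mx1. The untested Oas1a, Mx1 and Ifi44 had uncasted means of 0.404, 0.137 and 0.539, and casted means of 0.391, 0.166 and 0.221 scaled TPM, and Oas1a is nearly identical to Oas1g.

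In the IRF1/GBP group the changes with casting went both ways. Of 11 members 2 rose, 1 fell and 8 did not pass, with a median of -0.035, where 28.7% of all genes rose and 27.7% fell. The group held both the largest fall and the largest rise among the 33 members tested, Gbp7 at -1.10 and Irgm2 at 0.50. On the deposited scale 5 were higher (Irf1, Irf8, Igtp, Irgm1 and Irgm2) and 1 lower (Gbp7), with a median of 0.322. Over all genes 62.2% were higher and 7.43% lower on that scale, with a median of 0.389. With the casted group reduced to replicates 1 to 4, Gbp7 still fell (-0.91) and neither Irgm1 (0.28) nor Irgm2 (0.31) passed. In that setting 20.7% of all genes were higher and 19.8% lower.

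Gbp7 (ENSMUSG00000040253, chr3:142530342-142550149) encodes a guanylate-binding protein, one of the large GTPases of defence within cells. It ranged from 5.83 to 8.49 with a median of 6.80 in uncasted, from 1.495 to 4.71 with a median of 2.49 in casted and from 1.84 to 6.30 with a median of 4.0 in casted libraries with MOTS-c. No casted library reached the uncasted range, which holds for 10.9% of all tested genes in that direction. Casted replicates 1 and 2, at 4.71 and 3.98, were the highest of the group, and the libraries with MOTS-c spread from the casted into the uncasted range. The change was -1.10 ± 0.17 (limma adjusted p = 4.94e-06), and Gbp7 passed also on the deposited scale (-0.68, limma adjusted p = 0.00112). A processed pseudogene, Gm43802, overlaps Gbp7 by 637 bases at a mean of 0.341 scaled TPM.

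Irgm1 (ENSMUSG00000046879, chr11:48861968-48871683) encodes a regulatory immunity-related GTPase with a known part in autophagy. It ranged from 9.78 to 11.3 with a median of 10.3 in uncasted, from 11.5 to 15.9 with a median of 13.9 in casted and from 8.498 to 17.1 with a median of 11.6 in casted libraries with MOTS-c. The uncasted libraries were tightly grouped, all 8 casted libraries lay above them, and the group with MOTS-c reached from under the uncasted to above the casted range. Such a separation upward was seen in 11.5% of all tested genes. The change was 0.36 ± 0.09 (limma adjusted p = 0.002), and 0.83 on the deposited scale.

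Irgm2 (ENSMUSG00000069874, chr11:58199618-58222782) encodes a related regulatory GTPase. It ranged from 5.14 to 8.73 with a median of 6.92 in uncasted, from 6.61 to 21.1 with a median of 9.49 in casted and from 7.08 to 20.2 with a median of 7.92 in casted libraries with MOTS-c. Casted replicates 2, 5, 6 and 8 stood above every uncasted library and the others among them. The change was 0.50 ± 0.20 (limma adjusted p = 0.0384). It no longer passed without any one of uncasted replicates 3, 5, 7 and 8 or casted replicates 2, 5, 6 and 8. Irgm2 shares 7974 bases of its annotated extent with Igtp on the same strand, so reads may be divided between them, and Igtp changed by -0.03 with casting.

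The other GTPases and the MHC class I activator Nlrc5 were not called with casting. Gbp3 changed by -0.32 (limma adjusted p = 0.0755), Gbp5 by -0.24, Gbp2 by -0.10, Nlrc5 by -0.04 and Iigp1 by 0.13, the last with a standard error of 0.31. Gbp3 and Gbp5 were highest in casted replicate 1, at 3.09 and 2.53, and lowest in casted replicate 8, at 0.769 and 0.802. Without uncasted replicate 5 or without casted replicate 1, Gbp3 passed as lower.

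**Figure D2:**
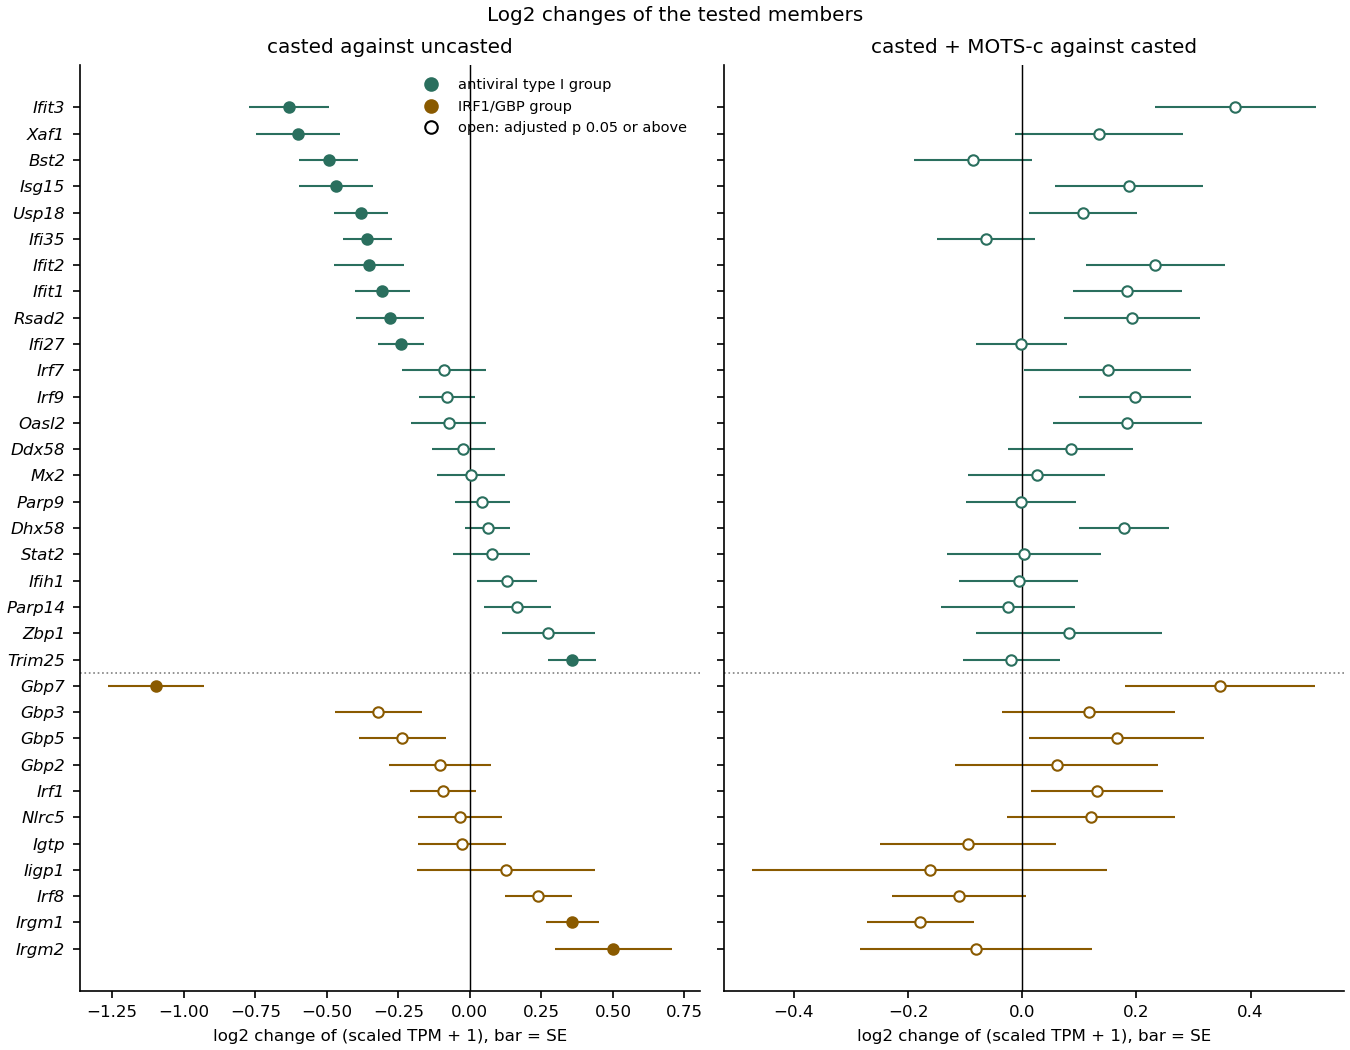
Log2 change of each of the 33 tested members, with its standard error, for casted against uncasted libraries on the left and casted with MOTS-c against casted on the right (the horizontal axes differ in range). Filled points passed at an adjusted p under 0.05: 11 antiviral and 3 IRF1/GBP members do so with casting, and none with MOTS-c.

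The transcription factors of both groups were not called in any of the 3 comparisons on the scaled values. On the deposited scale Stat2 (0.45), Irf1 (0.32), Irf8 (0.62) and Irf9 (0.32) passed as higher with casting and Irf7 (0.22) did not, and all 5 passed as higher in casted libraries with MOTS-c against uncasted ones. The shares of all genes higher on that scale were 62.2% and 60.0% in these comparisons. Irf1, the factor of the interferon gamma arm, ranged from 3.304 to 5.23 with a median of 4.77 in uncasted, from 3.13 to 6.20 with a median of 3.77 in casted and from 3.72 to 6.62 with a median of 4.43 in casted libraries with MOTS-c. Casted replicates 1 and 2 were at 5.88 and 6.20 and the other 6 at 3.91 or below, so the casted group held both the highest and the lowest of these 16 libraries. Its change with casting was -0.09 ± 0.12 (limma adjusted p = 0.505), and 0.32 on the deposited scale.

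Irf7, which amplifies the type I response, ranged from 0.929 to 2.37 with a median of 1.93 in uncasted, from 0.702 to 2.36 with a median of 1.71 in casted and from 1.10 to 2.95 with a median of 1.83 in casted libraries with MOTS-c. The 3 groups overlapped throughout, and the change with casting was -0.09 (limma adjusted p = 0.62). Irf9, the DNA-binding part of the type I complex, ranged from 2.85 to 3.99 with a median of 3.54 in uncasted, from 2.54 to 5.33 with a median of 3.001 in casted and from 2.83 to 4.66 with a median of 3.99 in casted libraries with MOTS-c. Casted replicates 2 and 5, at 3.79 and 5.33, were above the uncasted median and the other 6 under it, and the change was -0.08 (limma adjusted p = 0.508).

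Stat2, the partner of IRF9, ranged from 1.56 to 3.99 with a median of 2.61 in uncasted, from 2.22 to 3.69 with a median of 2.91 in casted and from 2.24 to 4.54 with a median of 2.53 in casted libraries with MOTS-c. Its groups overlapped, with a change of 0.08 (limma adjusted p = 0.652). Irf8, a factor of macrophages and dendritic cells, ranged from 2.04 to 3.45 with a median of 2.61 in uncasted, from 2.25 to 4.25 with a median of 3.50 in casted and from 1.93 to 4.04 with a median of 2.99 in casted libraries with MOTS-c. Its change was 0.24 ± 0.12 (limma adjusted p = 0.0847), and it passed without casted replicate 3. Irf8 lies within the predicted gene Gm20388 on the same strand, which has a mean of 23.9 scaled TPM, so its values are uncertain.

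Ratios of genes within a library do not depend on scaling between libraries, and 6 pairs, each of an IRF1/GBP and an antiviral member, were compared in the 3 comparisons. The p-values are from two-sided exact permutation tests of 8 against 8 libraries, adjusted over 18 tests, and the smallest p they can give is 0.0001554. The log2 ratio of Irgm1 to Ifit1 was 2.98 ± 0.23 in uncasted and 3.99 ± 0.55 in casted libraries (SD, n = 8), and 7 of 8 casted libraries lay above every uncasted one (difference 1.0, exact permutation p = 0.000311, adjusted 0.0042). The log2 ratio of Gbp7 to Bst2 went from 0.05 ± 0.23 to -0.75 ± 0.43, with 6 of 8 casted libraries under every uncasted one (difference -0.80, exact permutation p = 0.000466, adjusted 0.0042). One member of the IRF1/GBP group thus gained against its antiviral partner and another lost. Irgm1, Ifit1, Gbp7 and Bst2 were each called with casting in these same libraries, so the ratios are not separate evidence. Ratios of other gene pairs were not computed, so the share of pairs that would pass is unknown.

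The log2 ratio of Gbp2 to Isg15 was 2.08 ± 0.69 in uncasted and 3.18 ± 0.84 in casted libraries and did not pass after adjustment (difference 1.11, exact permutation p = 0.0152, adjusted 0.0914). The ratios among the factors did not pass either, at differences of 0.04 for Irf1 to Irf7, -0.01 for Irf1 to Irf9 and 0.48 for Irf8 to Irf7 (exact permutation test, adjusted p of 0.911, 0.955 and 0.378). With casted replicates 1 to 4 alone, the differences were 0.72 for Irgm1 to Ifit1 and -0.51 for Gbp7 to Bst2 and no longer passed (exact permutation test, adjusted p = 0.109 for both).

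**Figure D3:**
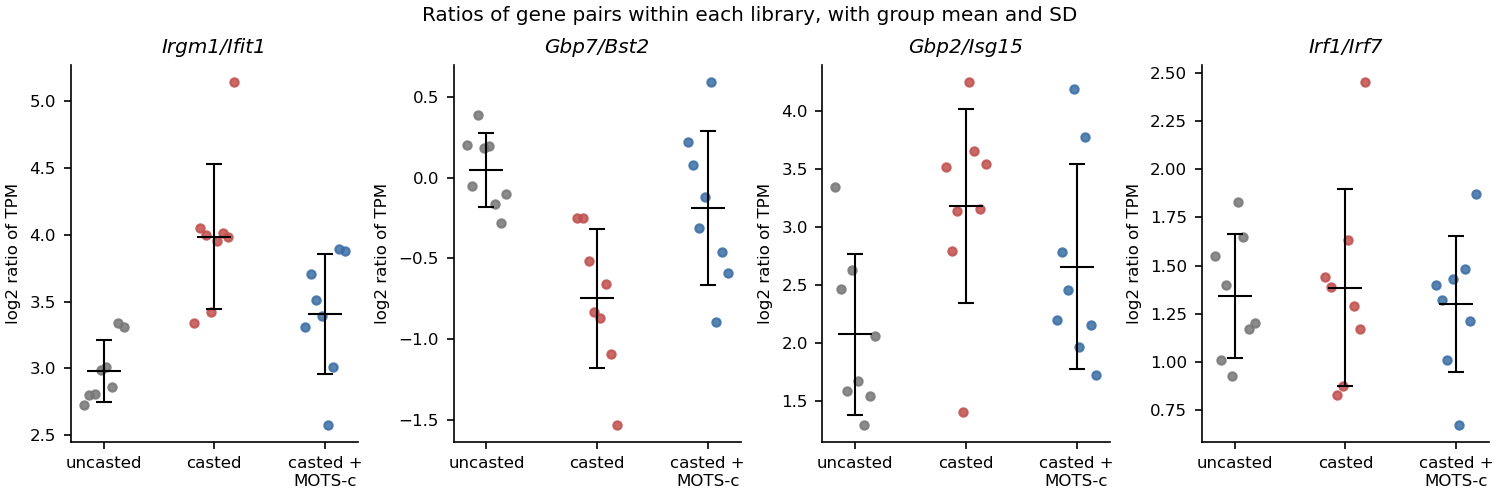
Log2 ratio of the TPM of 2 genes within each library, by group, with the group mean and 1 SD (vertical axes differ and do not start at 0). Casted libraries are higher than uncasted ones for Irgm1 to Ifit1 (3.99 against 2.98) and lower for Gbp7 to Bst2 (-0.75 against 0.05), and Irf1 to Irf7 overlaps in all groups.

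On the deposited scale the direction with casting turned in 13 of the 33 tested members, and none of the 10 antiviral falls passed as lower. Gbp7 was lower, and Trim25, Irgm1 and Irgm2 were higher, on the scaled and on the deposited values. Ifit3, Isg15, Xaf1, Bst2, Usp18, Ifit1 and Ifit2 stayed under 0 on the deposited scale without passing, at -0.26, -0.26, -0.20, -0.06, -0.13, -0.04 and -0.03. Rsad2 and Ifi35 turned to 0.06 and 0.10 and did not pass, and Ifi27 turned to 0.25 and passed as higher (limma adjusted p = 0.0356). All 10 lay under the deposited median of all genes, 0.39. Low genes change less on this log scale, and Mx2 and Dhx58, which did not fall on the scaled values, lay under it too. Lying under that median is therefore not by itself a fall.

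**Figure D4:**
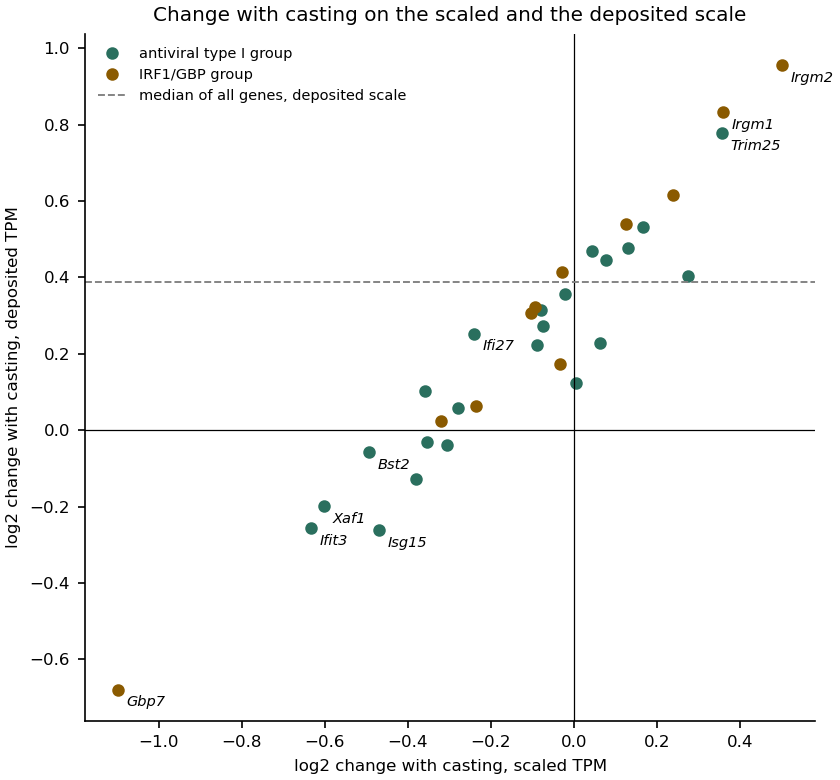
Log2 change with casting of each tested member on the scaled values (horizontal) against the deposited TPM (vertical); the dashed line is the median of all genes on the deposited scale, 0.39. Points lie along a diagonal shifted upward by about that median, and by less for low members such as Mx2. Gbp7 is under 0 and Irgm1, Irgm2 and Trim25 are above 0 on both axes, while called members such as Ifi27 change sign.

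With MOTS-c added to casting, no member was called. Against a background of 0.0136% of genes higher and 0.00681% lower, 0 of 33 members passed in limma, and 3 had an unadjusted p under 0.05, as did 13.5% of all genes. Antiviral members had a median change of 0.096 with 15 of 22 above 0, and IRF1/GBP members a median of 0.060 with 6 of 11 above 0, where the median of all genes was -0.005. Without scaling, the antiviral median was 0.072 and the IRF1/GBP median, at -0.002, changed sign, and again none passed, beside 0.0204% of all genes higher and 0.034% lower. The libraries with and without MOTS-c overlapped in every member tested, and a full separation was rare over all genes, at 0.0408% upward and 0.034% downward. This comparison shares the casted libraries with that of casting, so opposite signs in both are partly built in and are given only side by side.

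The 3 members of smallest p with MOTS-c were Ifit3, Dhx58 and Gbp7, all higher than in casted libraries and none passing. Ifit3 was 2.96 ± 0.701 with MOTS-c against 2.14 ± 0.996 without, and all 8 libraries lay above the casted median but none above casted replicate 1 (0.37 ± 0.14, limma adjusted p = 0.277). Gbp7 was 3.86 ± 1.49 against 2.78 ± 1.05, with replicates 2 and 5 above every casted library and replicates 6, 7 and 8 at 1.84 to 2.73, in the casted range (0.35 ± 0.17, limma adjusted p = 0.37). Dhx58, the sensor LGP2, ranged from 0.342 to 0.753 with a median of 0.488 in uncasted, from 0.426 to 0.752 with a median of 0.545 in casted and from 0.398 to 1.12 with a median of 0.752 in casted libraries with MOTS-c. Its libraries with MOTS-c held both the highest and the lowest of the 16 casted ones (0.18 ± 0.08, limma adjusted p = 0.336). When the casted group was reduced to its replicates 5 to 8, Ifit3 passed as higher with MOTS-c (0.62, limma adjusted p = 0.00548). In that setting 4.62% of all genes were higher and 5.7% lower. The subset leaves out casted replicates 1 and 2, which held the highest casted Ifit3 values (3.86 and 3.49), so the call depends on the libraries kept. Reduced to replicates 1 to 4, the change of Ifit3 was 0.12 (limma adjusted p = 0.995).

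Among the ratios, the log2 ratio of Irgm1 to Ifit1 differed by -0.576 and that of Gbp7 to Bst2 by 0.563 between libraries with MOTS-c and with casting alone. Neither passed after adjustment (exact permutation p = 0.0283 and 0.027, both adjusted 0.102). All 8 libraries with MOTS-c were at or under the casted median for Irgm1 to Ifit1, and 7 of 8 were above it for Gbp7 to Bst2.

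Replicate 4 of the group with MOTS-c had high values of the GTPase genes that move the group mean. It held 9.28 for Gbp2, 11.4 for Igtp, 20.2 for Irgm2 and 17.9 for Iigp1, where the next library of its group held 4.20, 6.99, 12.3 and 5.66. Without it, the median change of the IRF1/GBP group with MOTS-c was -0.087 in place of 0.060, and still no member passed. Of the other interferon gamma targets, 10 of 24 were highest in this library of its group, such as Gbp6 at 13.4 and Gbp10 at 10.3. The summed T and NK cell markers of this library were 0.707, within the range of its group from 0.651 to 1.56, and its macrophage markers summed to 266, within 140 to 339.

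**Figure D5:**
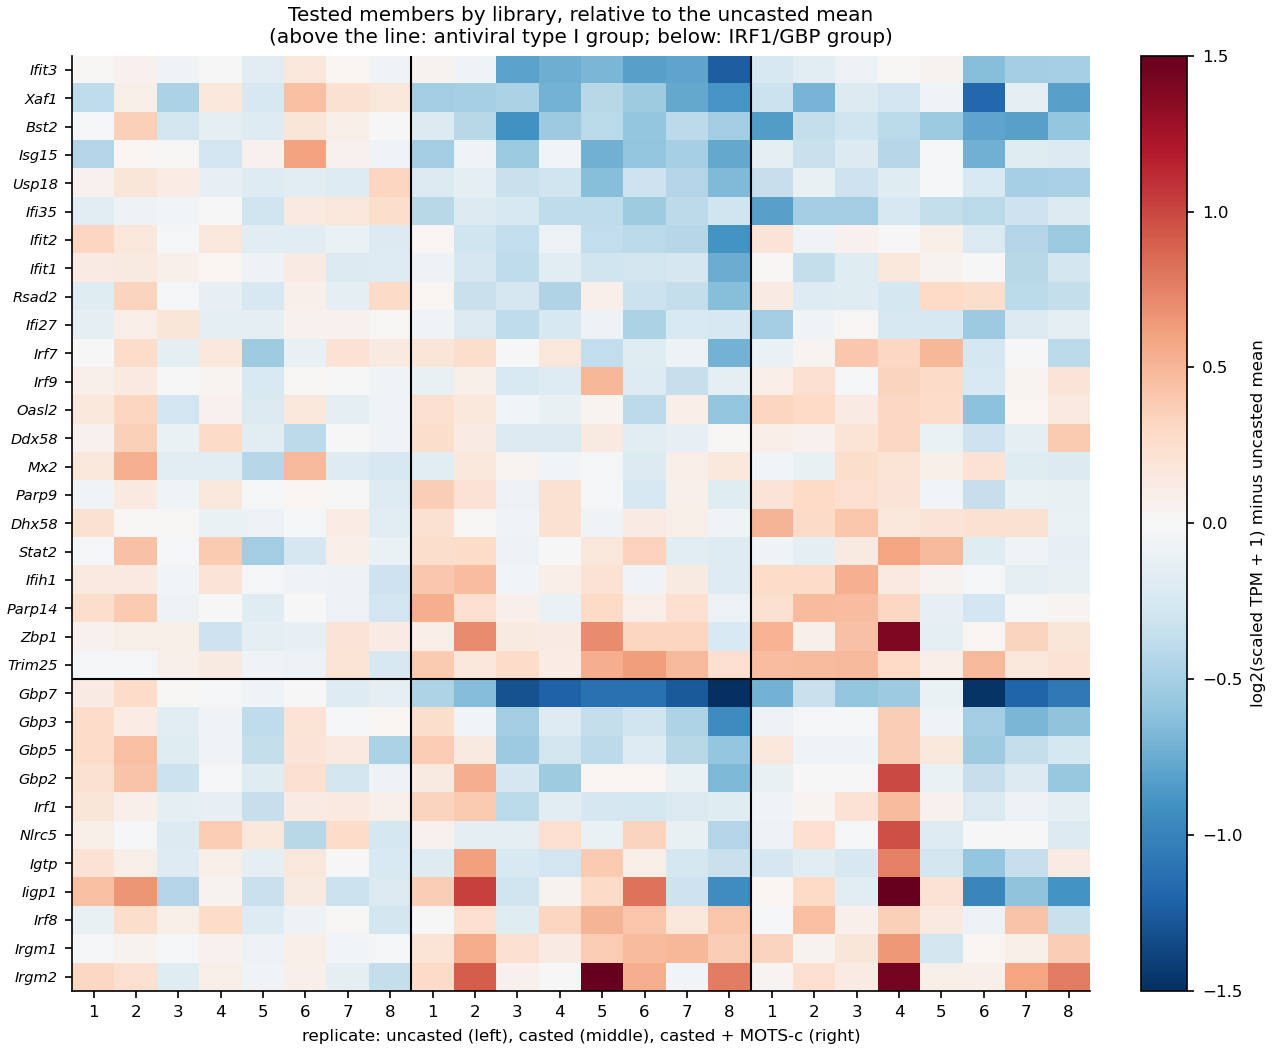
Each tested member (rows) in each of the 24 libraries (columns) as log2(scaled TPM + 1) minus the uncasted mean; red is higher, blue is lower, and the colour scale ends at 1.5 in each direction. The blue block of Gbp7 and Ifit3 is paler in casted replicates 1 and 2, and replicate 4 with MOTS-c is red over most of the IRF1/GBP rows.

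Casting with MOTS-c was also set beside no casting. Against a background of 26.0% of genes higher and 24.7% lower, 2 antiviral members were higher (Trim25 at 0.34 and Dhx58 at 0.24) and 5 lower (Bst2 at -0.58, Xaf1 at -0.47, Ifi35 at -0.42, Usp18 at -0.27 and Ifi27 at -0.24). In the IRF1/GBP group, Gbp7 alone was lower, at -0.75 (limma adjusted p = 0.000573), and none was higher. Bst2 was the single member whose groups did not overlap, which held for 8.15% of all genes in that direction and 7.26% in the other. Ifit3 (-0.26, limma adjusted p = 0.128) and Isg15 (-0.28, limma adjusted p = 0.0732) did not pass here. With only these 2 groups in the fit, Ifit3 passed as lower (limma adjusted p = 0.0361). On the deposited scale 11 antiviral and 4 IRF1/GBP members were higher in this comparison and none was lower, where 60.0% of all genes were higher and 6.94% lower, and Ifi27 turned to 0.18 and Ifit3 to 0.07.

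Psmb11, which encodes the catalytic subunit of the thymus proteasome, was listed at 0 in all uncasted libraries and above 0 in 5 of 24 libraries in all, never above 0.0186 scaled TPM.

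The interferon genes themselves were at or near 0. Of 9 interferon genes looked up, none could be tested. Ifnb1, Ifna1, Ifna2, Ifna4, Ifnk, Ifne, Ifnl2 and Ifnl3 were listed at 0 in all 24 libraries. Ifng was listed at 0 in 8 of 8 uncasted libraries, above 0 in 6 of 8 casted libraries (up to 0.50) and above 0 in 5 of 8 with MOTS-c (up to 0.313).

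Among receptors, kinases and STAT genes, casting raised 4 and lowered 2 of 10 tested, where 28.7% of all genes rose and 27.7% fell. The same shares stand beside the counts of inhibitors and of sensors and adaptors. Stat3 (0.90), the kinase gene Tyk2 (0.65) and the receptor gene Ifnar2 (0.55) led the rises, and Jak2, a kinase of the interferon gamma receptor, fell the most (-0.92). Of 7 inhibitors tested, Socs3 (1.81) and the phosphatase gene Ptpn2 (0.81) rose, and Ptpn11 (-0.29) and Nlrx1 (-0.26) fell, both above 0 on the deposited scale (0.21 and 0.20). Of 17 nucleic acid sensors and adaptors 7 rose and 3 fell, with Myd88 (0.87), the DNase gene Trex1 (0.78) and Tmem173, which encodes STING (0.66), in the lead. Ikbke (-0.42), Mavs (-0.30) and Rnaseh2a (-0.27) were the 3 that fell, and on the deposited scale Mavs and Rnaseh2a were above 0 (0.19 and 0.21).

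Further target genes of both arms were looked up. Of 29 other antiviral targets tested 3 rose and 11 fell with casting, with a median of -0.169; the interferon-inducible Mndal (-0.86), Ifit3b (-0.83) and Uba7 (-0.51), which activates ISG15, fell the most, and Slfn2 (0.57), Ifitm1 (0.56) and Tor3a (0.24) rose. Of 24 other targets of interferon gamma and IRF1, 4 rose and 2 fell, with a median of 0.004. The chemokine gene Cxcl10 (2.59), the adhesion gene Icam1 (1.99) and the MHC class I gene H2-D1 (0.45) led the rises, and the proteasome genes Psme1 (-0.58) and Psmb10 (-0.57) fell. With MOTS-c no gene of these lists was called, and 28 of the 29 other antiviral targets had a change above 0, with a median of 0.118 (21 of 29 and 0.066 on the deposited scale). The median of all genes was -0.005, and -0.068 on the deposited scale. These targets were measured in the same libraries, so their shared direction is not separate evidence. On the deposited scale 9 of the antiviral targets were higher and 3 lower with casting, as were 13 and 0 of the interferon gamma targets, where 62.2% of all genes were higher and 7.43% lower. On the scaled values the shares over all genes were 28.7% and 27.7%.

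Marker genes of muscle fibres and of other cell types moved with casting as well. All 6 muscle fibre markers fell, and 5 did on the deposited scale. Of 10 endothelial markers 9 fell and Cldn5 rose (0.62), and on the deposited scale 2 were lower and 2 higher. Over all genes 28.7% rose and 27.7% fell. Summed endothelial values were 137 to 207 in uncasted, 109 to 153 in casted and 127 to 165 in casted libraries with MOTS-c. Of 13 macrophage markers tested 9 rose and 1 fell, with sums of 91.5 to 122, 112 to 275 and 140 to 339 in the same order. The 4 neutrophil markers tested rose on both scales, with sums of 0.204 to 1.61, 4.87 to 19.3 and 4.11 to 23.4. Casted replicates 1 and 2, high in Ifit3, Gbp7 and Irf1, had the highest sums of their group for macrophage (211 and 275), endothelial (153 and 143), T and NK cell (1.55 and 1.46) and B cell markers (0.283 and 0.535). They did not for neutrophil (5.04 and 13.9), conventional dendritic (5.02 and 3.67), plasmacytoid dendritic (1.16 and 0.267) and muscle fibre markers (73400 and 71600). Casted replicate 4 had a T and NK cell sum of 1.42, with Ifit3 at 1.80 and Gbp7 at 2.39. With MOTS-c against casting no marker was called, and the changes were above 0 for 11 of 13 macrophage markers (median 0.378), 10 of 10 endothelial markers (median 0.152) and 6 of 6 muscle fibre markers (median 0.155). Without scaling these counts were 11, 9 and 5. The median of all genes was -0.005, and -0.068 without scaling. Markers of a list were measured in the same libraries, so such counts are not separate evidence. T and NK cell markers summed to at most 1.56 in any library, with Cd3d, Cd3g, Cd8a, Nkg7, Ncr1, Gzmb and Prf1 listed at 0 in at least 12 libraries, and none of these, of the B cell or of the plasmacytoid dendritic cell markers could be tested. The part of these cell types in the changes of the members was not tested.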

How the data were processed

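The authors deposited 1 table of TPM per library, with 55487 Ensembl gene identifiers, of which 55141 received a symbol from the GENCODE annotation of the same build. The submitters' processing notes name the build GRCm38.p6 and the tools STAR, RSEM, FastQC and DESeq2. Versions and the handling of strand are not given in the sources used here, and overlapping genes cannot be told apart by strand. No pair of libraries had more than 1.34% equal values.

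Libraries were brought to a common scale with an unweighted trimmed mean of their log ratios, after dropping 30% of the ratios and 5% of the levels at each end. The 14690 genes that reached 0.5 TPM in 8 or more libraries were fitted with limma 3.58.1 (R 4.3.3) as log2(scaled TPM + 1) with a mean-variance trend, as 3 group means over 24 libraries. P-values were two-sided and adjusted by Benjamini-Hochberg over all genes within each comparison, with a threshold of 0.05. The model was tested on simulated data. Ratios used the deposited TPM and exact permutation tests (scipy 1.17.1). Near-copies were searched among annotated transcripts with blastn 2.17.0 at 90% identity or more. The libraries were not treated as paired by the replicate numbers in the titles. Correlations of deviations in 24 same-numbered pairs ranged from -0.245 to 0.371, and 6 were over 0.1. Pairs of unlike number were not compared, so this check cannot exclude pairing. With the replicate number as a block, MOTS-c against casting called 13 genes higher and 5 lower over all genes, in place of 2 and 1.

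Members, groups and lists were chosen with earlier results of these data known. Members were given in full by a rule: up to 4 largest called rises and falls per group with casting, the 3 smallest p with MOTS-c, the factors, and Psmb11; from other lists, up to 3 called genes per direction. The alternatives tried were no scaling, median-of-ratios scaling, a pseudocount of 0.1, no filter, a replicate block, 2 groups per fit, subsets of the casted libraries and leaving out each library. Each library is 1 mouse, and p-values measure the spread between mice within this experiment.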

Additional observations from a re-analysis of the deposited data

Results flagged for a closer look

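In 9 of 99 groups of 8 libraries (a member in a group), 1 library stood farther from the nearest other than Dixon's 95% critical value for 8 samples allows, where chance gives about 1 in 20. Of these 9, 6 came from replicate 4 of the group with MOTS-c, as the highest of its group. They were Gbp2 at 9.28 scaled TPM (next library 4.20), Igtp at 11.4 (6.99), Irgm2 at 20.2 (12.3), Iigp1 at 17.9 (5.66), Nlrc5 at 2.46 (1.12) and Zbp1 at 2.35 (0.823). The members share this library, so these are not separate events. In replicate 6 of the same group Oasl2 was the lowest, at 1.14 (next library 2.33). Irf9 was highest in casted replicate 5, at 5.33 (3.79), and Isg15 in uncasted replicate 6, at 2.08 (1.12). None of these members passed with MOTS-c with or without these libraries.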

How the results depend on the processing

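Median-of-ratios scaling and a pseudocount of 0.1 left the 14 calls with casting in place. On the deposited TPM the antiviral members went from 1 higher and 10 lower to 10 and 0 with casting and from 2 and 5 to 11 and 0 for casting with MOTS-c against no casting; the IRF1/GBP members went from 2 higher to 5, and for casting with MOTS-c from 0 higher and 1 lower to 4 and 0. On that scale 62.2% of all genes were higher and 7.43% lower with casting, and 60.0% and 6.94% for casting with MOTS-c against no casting. The direction with casting turned there in 13 of 33 members, of which 5 passed as higher. Among those that turned were Irf1 (0.32), Irf9 (0.32), Igtp (0.41), Ddx58 (0.36), Rsad2 (0.058), Ifi35 (0.10) and Ifi27 (0.25, and 0.18 for casting with MOTS-c against no casting). With only casted replicates 1 to 4, casting gave 0 antiviral members higher and 4 lower and 0 IRF1/GBP members higher. Over all genes 20.7% were higher and 19.8% lower in that setting. The ratios Irgm1 to Ifit1 (0.72) and Gbp7 to Bst2 (-0.51) did not pass there. With only 5 to 8, 2 IRF1/GBP members were lower with casting (Gbp3 and Gbp7), 1 antiviral member was higher with MOTS-c (over all genes 27.7% were lower with casting and 4.62% higher with MOTS-c), and these ratios passed: Irf8 to Irf7 (1.07 with casting, -0.993 with MOTS-c), Gbp2 to Isg15 (1.57 with casting), Gbp7 to Bst2 (0.85 with MOTS-c) and Irgm1 to Ifit1 (-0.86 with MOTS-c). The subset of 5 to 8 leaves out casted replicates 1 and 2, the highest of the group in Ifit3 and Gbp7. What passed in it therefore depends on the libraries kept. Without the filter 1 IRF1/GBP member rose with casting in place of 2, and Irgm2 and Rsad2 were lost. With the replicate number as a block, 1 rose and 2 fell (Irgm2 lost, Gbp3 gained); Rsad2 was lost too. With only 2 groups fitted, 1 IRF1/GBP member (Irgm2) was higher in casting with MOTS-c against no casting, and Ifit3 passed as lower. The causes were not tested. Leaving out each library in turn gave 1 to 3 IRF1/GBP members higher and 1 to 2 lower with casting, 9 to 10 antiviral members lower, 0 to 1 IRF1/GBP members higher for casting with MOTS-c against no casting, and no member called with MOTS-c in any of 24 fits. The ratio Gbp2 to Isg15 with casting ranged from 0.95 to 1.36 and passed without uncasted replicate 1 or casted replicate 4; Irgm1 to Ifit1 for casting with MOTS-c against no casting ranged from 0.36 to 0.55 and passed without replicate 5 with MOTS-c. Depth is unknown, so what it limits cannot be stated; low members such as Zbp1, Mx2 and Isg15 are the least certain.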
